A study of Rattus norvegicus with 23 samples.

Results

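Hearts of rats in which disease sat on opposite sides of a kidney transplant were compared: rats with chronic kidney disease (CKD) that had received a healthy kidney (HD-CR, n = 5) and healthy rats that had received a kidney from a rat with CKD (CD-HR, n = 6). Membership came from the sample titles, which put 11 of the 23 rats of the study in these 2 groups. The other 12 had a graft and a recipient of the same kind, either both healthy (HD-HR, n = 6) or both with CKD (CD-CR, n = 6), and are used here for reference. Donors and recipients were inbred Lewis rats, so the grafts were isografts. CKD had been produced by coagulating renal artery branches to ablate 2/3 of the renal mass on both sides, followed by L-NNA, which blocks nitric oxide synthase, at 200 mg/L in the drinking water and by chow with 6% NaCl. Both additions were withdrawn at a proteinuria of 200 mg per 24 h, and diseased rats were enrolled at 100 mg per 24 h without them. Rats on the healthy side had intact kidneys. Every recipient had the left kidney replaced by the graft, lost the right native kidney on day 10 to 14, and was killed 6 weeks after transplantation. The protocol gives 30 min of ischemia for all rats. The polyadenylated RNA of the heart apex was sequenced, with 1 library per rat. The labels give neither sex nor age.

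The kidneys act on the heart through blood pressure, fluid and salt balance, hormones such as renin and erythropoietin, and retained solutes and phosphate. Long-standing CKD is known for hypertrophy of the left ventricle, fibrosis and a loss of capillaries in the heart. A transplant exchanges the kidney but not the body in which the heart has been exposed, and a diseased graft brings the kidney lesion without that past exposure. An HD-CR heart had therefore been in a diseased body and was later served by a healthy kidney, and a CD-HR heart had the reverse history. The contrast between them asks which of the 2 histories the heart transcriptome follows, and it changes the graft and the recipient at once. The past exposure includes the ablation surgery, the L-NNA and the salt, which cannot be told apart from CKD itself.

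Depth was 9212531 to 11373022 counts in genes in HD-CR and 7391929 to 12169291 in CD-HR. The files list genes by Ensembl identifier without names. Only 4 genes are therefore named below, 2 that were higher and 2 that were lower in HD-CR, and without roles, coordinates or sequences, and the heart tissue could not be checked against marker genes. The names of the animals begin with 12 or 13, a number the labels do not explain. The CD-HR names all begin with 13, and so does that of HD-CR5, while those of HD-CR1 to HD-CR4 begin with 12. The name prefix and the group can for the most part not be told apart. Median Spearman correlations across genes with all other libraries of the study were lowest in HD-CR4 (0.951) for HD-CR and in CD-HR5 (0.959) for CD-HR. HD-CR5 was close to HD-CR4 at 0.953, while HD-CR1 to HD-CR3 were at 0.965 to 0.968.

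The 2 groups differed in 614 genes, about equally in both directions, and the rises were larger but in less abundant genes. In HD-CR hearts 317 genes were higher and 297 lower than in CD-HR hearts, of 11568 genes tested (adjusted p under 0.05 by edgeR's quasi-likelihood test, Benjamini-Hochberg adjustment). These are 2.74% and 2.57% of the genes tested, or 5.31% together. Genes that rose had a median log2 fold change of 1.005 (quartiles 0.74 and 1.79) and genes that fell one of -0.63 (quartiles -0.84 and -0.51), against -0.01 over all genes tested. A change of at least 2-fold was reached by 160 genes that rose and by 50 that fell. In a bulk sample, fewer cells of a type and less RNA per cell cannot be told apart.

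The 2 directions differed in abundance. Levels are TMM-scaled CPM, counts per 1000000 counts in genes. The median level over the 11 hearts was 5.09 CPM among genes that rose and 17.9 CPM among genes that fell, against 9.38 CPM over all genes tested. Under 5 CPM there were 157 genes that rose and 50 that fell, and over 50 CPM there were 18 that rose and 67 that fell. The plot of fold change against level shows the same asymmetry, with the large rises at low levels and a pair of very abundant genes among those that fell.

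**Figure D1:**
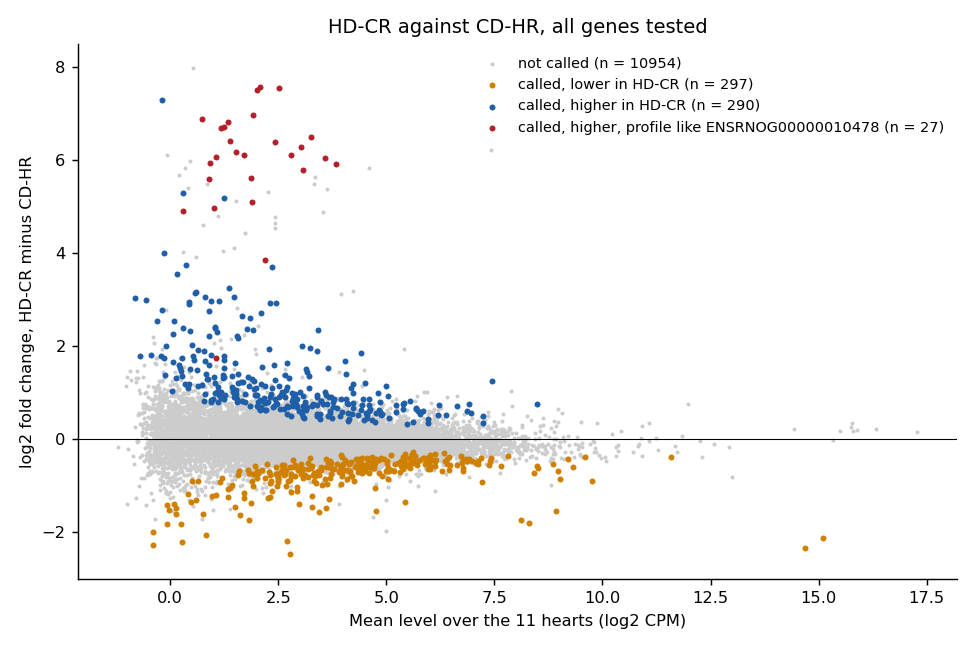
Fold change against level for the 11568 genes tested. Each point is a gene, the x axis is the mean level over the 11 hearts (log2 CPM) and the y axis the log2 fold change of HD-CR minus CD-HR. Called genes (adjusted p under 0.05) are coloured, and the 27 that share the profile of ENSRNOG00000010478 lie between 1.75 and 7.57, mostly above the other genes that rose.

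Full separation of the groups was the exception among all genes. For 476 of the 11568 genes (4.11%) all 5 HD-CR hearts lay on 1 side of all 6 CD-HR hearts, in 271 above and in 205 below. Of the called genes, 156 that rose and 123 that fell were separated in this way. The remaining called genes overlapped in at least 1 heart.

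ENSRNOG00000023972 was the gene that fell with the smallest p. It stood at 88.5, 99.5, 104.7, 112.4 and 95.9 CPM in HD-CR1 to HD-CR5, and in CD-HR at 155.5 CPM at the lowest, 177.5 at the median and 252.2 at the highest. The 5 HD-CR hearts were all below the 6 CD-HR hearts, and HD-CR5 was the second lowest of its group. The group means were 100.2 ± 9.02 CPM (SD, n = 5) and 189.3 ± 36.9 CPM (SD, n = 6), a log2 fold change of -0.92 ± 0.12 (SE, adjusted p = 0.00073 by edgeR). The hearts with matched graft and recipient stood between them, HD-HR at 142.9 ± 15.1 CPM (SD, n = 6) and CD-CR at 126.7 ± 16.1 CPM (SD, n = 6). Among the alternatives tried, this gene failed to pass only among animals of prefix 13, where HD-CR5 is the single HD-CR heart (log2 -0.94, adjusted p = 0.0827 by edgeR).

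ENSRNOG00000011955 was the gene that rose with the smallest p. Its level was 3.82, 0.907, 3.23, 4.45 and 4.53 CPM in HD-CR1 to HD-CR5, and 0.133 at the lowest, 0.349 at the median and 0.923 CPM at the highest in CD-HR. Of the HD-CR hearts 4 were clearly above CD-HR, and HD-CR2 lay just below CD-HR6, so the groups overlapped by 1 heart. The means were 3.39 ± 1.48 CPM (SD, n = 5) and 0.402 ± 0.292 CPM (SD, n = 6), and the fitted difference was 8.28-fold (log2 3.05 ± 0.43, SE, adjusted p = 0.000818 by edgeR). HD-HR was at 0.936 ± 0.436 CPM and CD-CR at 0.681 ± 0.280 CPM (SD, n = 6 each), so that each of the other 3 groups averaged under 1 CPM. It passed with the name prefix as a covariate (log2 3.14, adjusted p = 0.0164 by edgeR) and failed only with 2 surrogate variables (2.84, adjusted p = 0.158 by edgeR). Among animals of prefix 13, where HD-CR5 is the single HD-CR heart, the log2 fold change was 3.51. The prefix covariate also leans on HD-CR5, since HD-CR5 and CD-CR5 are the only CKD recipients of prefix 13. The 2 checks are therefore not independent.

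ENSRNOG00000014448 had the largest fall. It stood at 1.07, 1.90, 2.59, 2.48 and 1.74 CPM in HD-CR1 to HD-CR5, and between 2.31 and 26.6 CPM in CD-HR, with a median of 7.71. HD-CR3 and HD-CR4 lay above CD-HR6, and the CD-HR hearts were spread far more widely than those of HD-CR. The means of 1.96 ± 0.616 CPM (SD, n = 5) and 10.8 ± 9.22 CPM (SD, n = 6) gave a log2 fold change of -2.48 ± 0.66 (SE, adjusted p = 0.0360 by edgeR). HD-HR (3.65 ± 3.90 CPM) and CD-CR (4.53 ± 2.29 CPM; SD, n = 6 each) were both spread across the gap. The call was lost under 16 of the 23 alternatives, among them limma-voom, the name prefix as a covariate and the fit of the 2 groups alone, and without CD-HR4, its highest heart, the log2 fold change was -1.94.

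**Figure D2:**
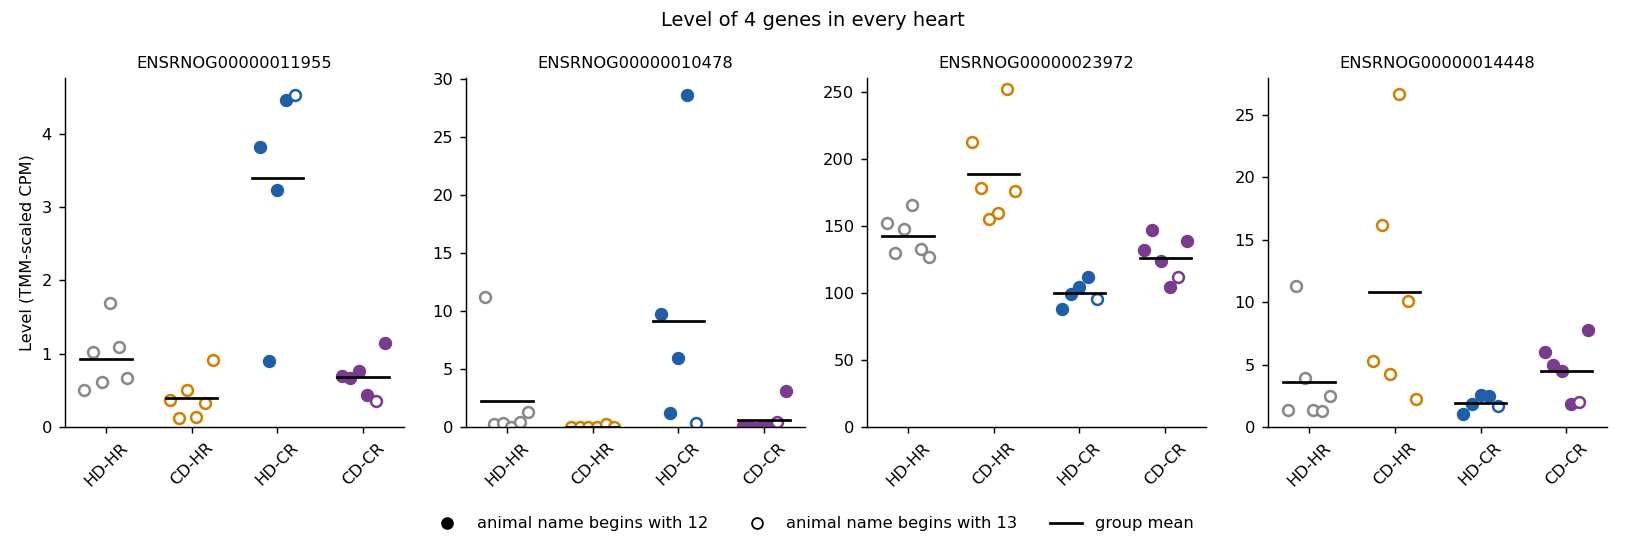
Level of the 4 named genes in every heart (y axis, TMM-scaled CPM, from 0) by group (x axis), with bars at the group means. Filled points are animals whose names begin with 12 and open points those beginning with 13. HD-CR and CD-HR do not overlap for ENSRNOG00000023972 and, by a narrow gap, for ENSRNOG00000010478, which is spread from 0.348 to 28.6 CPM within HD-CR.

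ENSRNOG00000010478 had the largest rise, and it was uneven among the HD-CR hearts. Its level was 9.77, 1.24, 6.00, 28.6 and 0.348 CPM in HD-CR1 to HD-CR5. It was at 0 in 5 CD-HR hearts and at 0.331 CPM in CD-HR5. The groups did not overlap, but HD-CR5 barely exceeded CD-HR5, and HD-HR1, with both graft and recipient healthy, stood at 11.2 CPM, above 4 of the 5 HD-CR hearts. The 6 CD-HR hearts together held 2 counts of the gene and the 5 HD-CR hearts 469, a ratio of 253 with a 95% interval of 69.5 to 2092 (exact Poisson, counting error only). The fit gave 7.57 ± 1.78 (log2, SE) with an adjusted p of 0.0231 by edgeR. The call held under 13 alternatives and was lost under 9. Without HD-CR4, for example, the adjusted p was 0.0727 by edgeR. With the prefix as a covariate the log2 fold change was 4.37 (adjusted p = 0.4999 by edgeR). Among animals of prefix 13, where HD-CR5 is the single HD-CR heart, it was 2.91. The fit of HD-CR and CD-HR alone dropped this gene for its low counts, so its rise has no result there.

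The largest rises formed 1 group of genes with that same profile. The profile of ENSRNOG00000010478 (log2 of CPM + 0.1 over the 23 libraries) was correlated at r above 0.9 with those of 51 of the 11568 genes, itself included, of which 27 were called and 24 were not. This grouping was made after the values were seen and carries no test. The 27 include 19 of the 20 largest rises, with fitted log2 fold changes from 1.75 to 7.57 and a median of 6.12. Their counts summed over CD-HR were low, with a median of 4 and 11 genes at 1 to 3 counts, against a median of 400 in HD-CR. With CD-HR sums under 3 counts set to 3, the median ratio was 78.0.

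The HD-CR hearts differed widely among themselves in these 27 genes. The median level over the 27 genes was 8.88, 1.32, 2.68, 23.9 and 0.232 CPM in HD-CR1 to HD-CR5, and 0 in every CD-HR heart but CD-HR5, where it was 0.497 CPM. HD-CR4 was the highest of the 11 hearts for all 27 genes, HD-CR1 to HD-CR4 all lay above the CD-HR range in 26, and HD-CR5 lay within or below that range in 20. Outside both groups, HD-HR1 reached a median of 12.2 CPM, and CD-CR6 and HD-HR6 reached 3.04 and 1.95 CPM. As a share of the HD-CR4 level, HD-CR1 held 37.7% at the median gene (10th to 90th percentile 32.4 to 45.7%), HD-CR2 5.81% (2.88 to 11.02%), HD-CR3 13.4% (10.9 to 22.3%), HD-CR5 0.834% (0 to 2.71%) and HD-HR1 55.9% (41.0 to 90.9%). The genes were chosen for a like profile, so a like order of the hearts is built in.

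A gene of the same profile that was not called (adjusted p = 0.0519 by edgeR) was the most abundant of the 51. It stood at 421, 44.5, 193, 1186 and 6.85 CPM in HD-CR1 to HD-CR5, at 31.4 CPM in CD-HR5 and at no more than 1.17 CPM in the other CD-HR hearts, with HD-HR1 also at 421 CPM. Calls in this group were lost more readily than the fold changes. Without HD-CR4, without CD-HR4, with the prefix as a covariate, with non-unique alignments as a covariate, with 2 surrogate variables and by limma-voom, 0 of the 27 were called, and DESeq2 called 25. In the fit of the 2 groups alone only 6 of the 27 passed the filter on low counts, of which 5 were called. The rest could be tested only with the other groups in the fit. Against 6.12 as reported, the median log2 fold change of the 27 was 5.04 without HD-CR4, 5.84 without CD-HR4, 4.86 by limma-voom, 4.37 with the prefix, 7.60 with non-unique alignments and 2.17 with 2 surrogate variables. Among animals of prefix 13 it was 0.70. The part that cells of another tissue, the name prefix or a single rat had in this group was not tested.

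**Figure D3:**
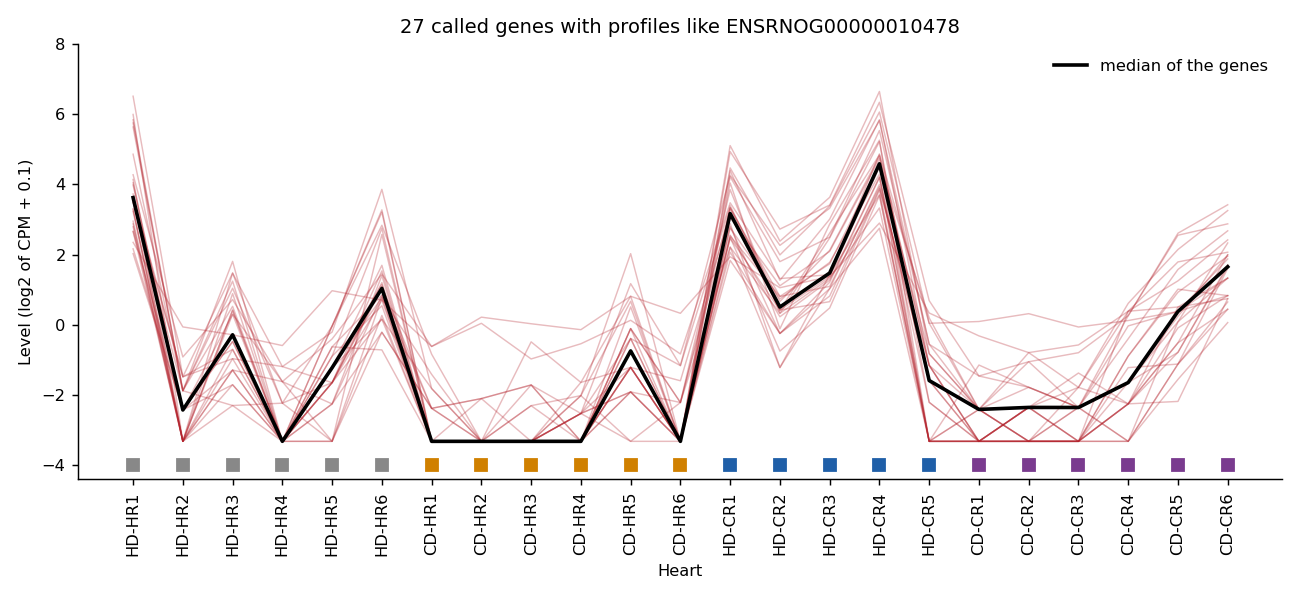
Level of the 27 called genes with profiles like ENSRNOG00000010478 in each of the 23 hearts (y axis, log2 of CPM + 0.1). Each red line is a gene and the black line their median, and squares give the group of each heart. The genes are highest in HD-CR4, HD-HR1 and HD-CR1. Lower medians of 3.04, 2.68, 1.95, 1.32 and 1.20 CPM are found in CD-CR6, HD-CR3, HD-HR6, HD-CR2 and CD-CR5. The genes are near 0 in the CD-HR hearts other than CD-HR5.

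A pair of genes stood out by abundance among those that fell. They were the 2 most abundant called genes and are described without identifier because they fall outside the rule for named genes. The first was at 14527, 6881, 9270, 11428 and 19985 CPM in HD-CR1 to HD-CR5 and at 13139 to 160382 CPM in CD-HR (median 29549), so that the groups overlapped. Its fall was -2.13 ± 0.57 on the log2 scale (SE, adjusted p = 0.0378 by edgeR), and that of the other gene was -2.33 ± 0.64 (adjusted p = 0.0396). Together they took 1.47 to 2.91% of the counts in HD-CR and 2.07 to 24.0% in CD-HR, where CD-HR5 (24.0%) and CD-HR2 (11.7%) were highest. Among the matched hearts the median level of the first gene was 29735 CPM in HD-HR and 15343 CPM in CD-CR.

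That pair followed the number of non-unique alignments, which is counted over the whole library. The share of the pair and the ratio of such alignments to counted reads both have the counts in genes as divisor. Whether reads of the pair themselves gave rise to such alignments was not tested. Such alignments numbered 0.804 to 1.75 per counted read in HD-CR and 0.843 to 10.7 in CD-HR, with CD-HR5 the highest. Over the 11 hearts, the log2 share of the pair and the log2 ratio of non-unique alignments had a Pearson r of 0.963 (permutation p = 2e-05, the smallest that the permutations can give) and a Spearman rho of 0.900 (permutation p = 0.00022). Without the 2 hearts farthest from the median ratio r was 0.922, and within CD-HR it was 0.972 (n = 6, exact permutation p = 0.00278, the smallest possible, 1 relation examined). With that ratio in the fit, chosen after the data were seen, the log2 fold changes were -0.53 in both genes (adjusted p = 0.300 and 0.330 by edgeR). Since the ratio followed the pair so closely, a smaller fold change with it in the fit was largely built in. Without CD-HR5 the log2 fold changes were -1.41 and -1.50 and did not pass. Both calls were also lost by limma-voom, with the name prefix as a covariate, and without any 1 of the HD-CR hearts, CD-HR2 or CD-HR4. In the fit of the 2 groups alone they were lost as well (adjusted p = 0.108 and 0.109 by edgeR). They were likewise lost with 2 surrogate variables, with no filter on low counts and with the replicate number as a block. Both passed by DESeq2, with RLE size factors, and without CD-HR1, CD-HR3 or CD-HR6. They also passed when the part of all counts held by the top 10 genes was a covariate. Where the calls were lost, the log2 fold change of the first gene was -1.66 by limma-voom and -1.59 with the prefix. It was -1.96 to -2.36 without single HD-CR hearts, -2.00 without CD-HR2 and -2.24 without CD-HR4. It was -2.11 with the 2 groups alone, -2.30 with 2 surrogate variables, -2.13 with no filter and -1.97 with the block. Among animals of prefix 13, where HD-CR5 is the single HD-CR heart, it was -1.39.

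HD-CR5 is the only HD-CR heart whose name prefix is that of the CD-HR animals, and it was set beside the genes called without it. In a fit without HD-CR5, 158 genes that rose and 96 that fell were called among the 11568 genes. HD-CR5 lay on the same side of the CD-HR mean for 141 of the 158 (89.2%) and 94 of the 96 (97.9%), against 72.1% over all genes. It lay beyond all 6 CD-HR hearts in that direction for 120 (75.9%) and 78 (81.2%), against 39.3% over all genes. The direction and the side are both taken against the same CD-HR hearts, which raises each of these shares, including that over all genes.

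In size, its median log2 difference from CD-HR was 0.92 in the 158 genes, against 1.33 in HD-CR1 to HD-CR4, and -0.88 in the 96 genes, against -0.76. Of the 158, 23 belong to the 27 described above, and in the other 135 the medians were 0.98 and 1.24. HD-CR1 to HD-CR4 chose these genes and HD-CR5 did not, which raises the size in the former. Over the 317 genes that rose in the fit of all hearts, the medians were 0.98 in HD-CR5 and 0.97 in HD-CR1 to HD-CR4, and over the 297 that fell -0.82 and -0.56. Adjusting for the prefix gave 269 called genes, 153 of them among the 614. That adjustment leans on HD-CR5 and CD-CR5, the only CKD recipients of prefix 13. Among animals of prefix 13, where HD-CR5 is the single HD-CR heart, 17 were called, 10 of them among the 614. HD-CR5 is 1 rat, so the group and the animal cannot be told apart within that prefix.

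The matched groups placed the difference on a scale of the same genes. Relative to CD-HR, the genes that rose had a median log2 level of 0.39 in HD-HR, 0.55 in CD-CR and 0.97 in HD-CR. The genes that fell had -0.19, -0.37 and -0.62 in the same order. By these medians the 2 matched groups lay between the groups compared. Gene by gene, HD-HR was nearer to CD-HR and CD-CR nearer to HD-CR at once in 38.8% of the genes that rose and 64.3% of those that fell, against 34.4% of all genes tested. HD-HR was nearer to CD-HR than to HD-CR in 211 of 317 genes that rose (66.6%) and in 247 of 297 that fell (83.2%), against 61.0% of all genes tested. CD-CR was nearer to HD-CR in 180 (56.8%) and 224 (75.4%), against 55.9%, so that for genes that rose the share was near that of all genes. Since the genes were chosen for HD-CR and CD-HR being apart, intermediate levels elsewhere are in part built in.

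The hearts outside both groups were compared in the same way, CKD against healthy recipients, but there the graft changed in the same direction as the recipient. CD-CR against HD-HR shares no heart with HD-CR against CD-HR, though it shares the estimate of the spread and nearly the same split of prefixes, with 5 of 6 CD-CR animals of prefix 12 and all of HD-HR of prefix 13. It called 422 genes (3.65%), 313 higher and 109 lower in CD-CR. With the name prefix as a covariate it called 0, so these calls and those shared below cannot be told apart from the prefix. Of the 614 genes called between HD-CR and CD-HR, 453 (73.8%) had the same sign there, against 62.1% of all genes tested. The share was 84.8% for genes that fell (252 of 297) and 63.4% for genes that rose (201 of 317). Outside the 27 genes of the shared profile it was 69.3% for genes that rose (201 of 290).

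Agreement in sign was more frequent than agreement in calls. In both comparisons 53 genes were called, 38 higher and 15 lower in the CKD recipients and 0 in opposite directions. They are 8.63% of the 614 and 12.6% of the 422. In the matched hearts the median signed log2 fold change was 0.16 in the genes that rose and -0.23 in those that fell. The genes were chosen for their difference between HD-CR and CD-HR, so smaller values in other hearts are in part built in. Genes of opposite sign also make these medians smaller, so they do not measure size alone. None of the 27 genes of the shared profile had the same sign, with a median of -1.95 and 0 called, and HD-HR1 was the highest HD-HR heart in their median level. The 27 were chosen for a like profile over all libraries, these hearts included, so a common sign among them is largely built in.

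The named genes differed in this respect. For CD-CR minus HD-HR, ENSRNOG00000023972 had a log2 fold change of -0.17 (adjusted p = 0.434 by edgeR) and ENSRNOG00000011955 one of -0.43 (adjusted p = 0.620), against -0.92 and 3.05 for HD-CR minus CD-HR. ENSRNOG00000014448 was at 0.29 (adjusted p = 0.840). Of these 3 only ENSRNOG00000023972 pointed the same way in both comparisons.

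Whether the 2 differences were themselves different was tested gene by gene. No gene passed (0 of 11568, 0%, edgeR), with the smallest adjusted p at 0.0572, for ENSRNOG00000011955 (log2 difference 3.47). Unadjusted p fell under 0.05 in 1477 genes, and DESeq2 called 226 and limma-voom 0. This test contrasts healthy with CKD grafts over both kinds of recipient, since HD-CR and HD-HR stand on 1 side and CD-HR and CD-CR on the other. A gene that misses the threshold is not shown to have the same difference in both comparisons.

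**Figure D4:**
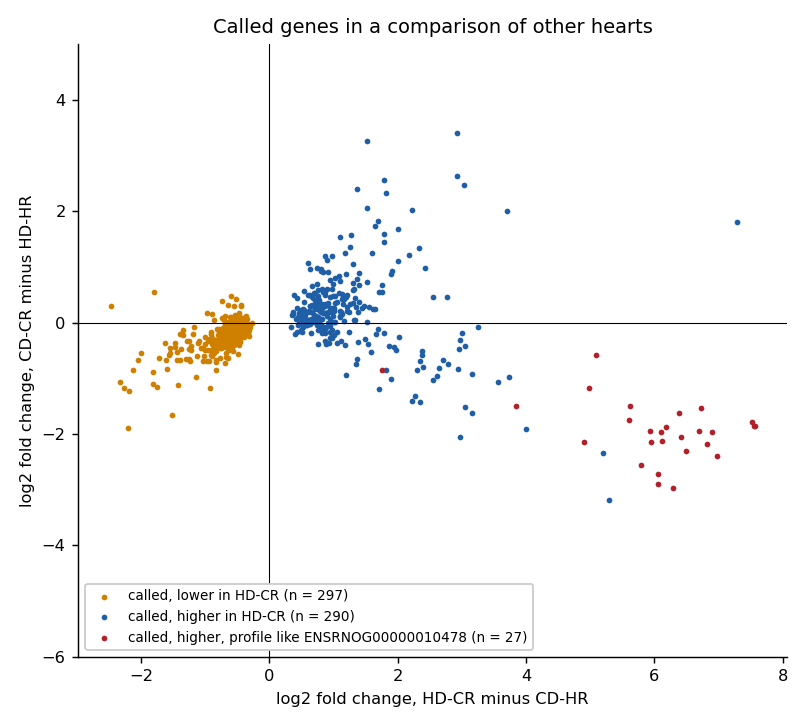
Log2 fold change of CD-CR minus HD-HR (y axis) against that of HD-CR minus CD-HR (x axis) for the 614 genes called between HD-CR and CD-HR. Each point is a gene, and the x values chose the genes. Of the genes that fell 252 of 297 lie below 0 on the y axis, and the 27 with the shared profile all lie below 0 although they rose on the x axis. Their common sign is largely built in by the choice of a like profile.

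Measures of the libraries also differed somewhat between the groups. HD-CR hearts had 14711 ± 264 genes with a count (SD, n = 5) and CD-HR hearts 14232 ± 315 (SD, n = 6; two-sided exact permutation p = 0.0346). Ambiguous reads were 1.57% and 1.12% (exact permutation p = 0.0303), and the log2 ratio of non-unique alignments was 0.25 and 1.44 (exact permutation p = 0.0476). None of the 6 measures tested passed after Benjamini-Hochberg adjustment, the smallest adjusted value being 0.0844. With the log2 ratio of non-unique alignments in the fit 177 genes were called, and with the share of counts in the 10 most abundant genes 640, of which 555 were among the 614. The part of the other 4 measures in the gene calls was not tested.

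The number of called genes moved strongly with single hearts, while directions held. It was 115 without HD-CR4, 126 without CD-HR4, 269 without HD-CR5, 287 without HD-CR1, 348 without CD-HR5 and 368 without CD-HR6. With 2 surrogate variables it was 2. Of the 614 genes, all that were tested kept their direction under each alternative (566 in the fit of the 2 groups alone, 612 to 614 elsewhere), except under 2 surrogate variables (598 of 614) and among animals of prefix 13 (596 of 612), though the same hearts that chose the genes entered these fits.

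**Figure D5:**
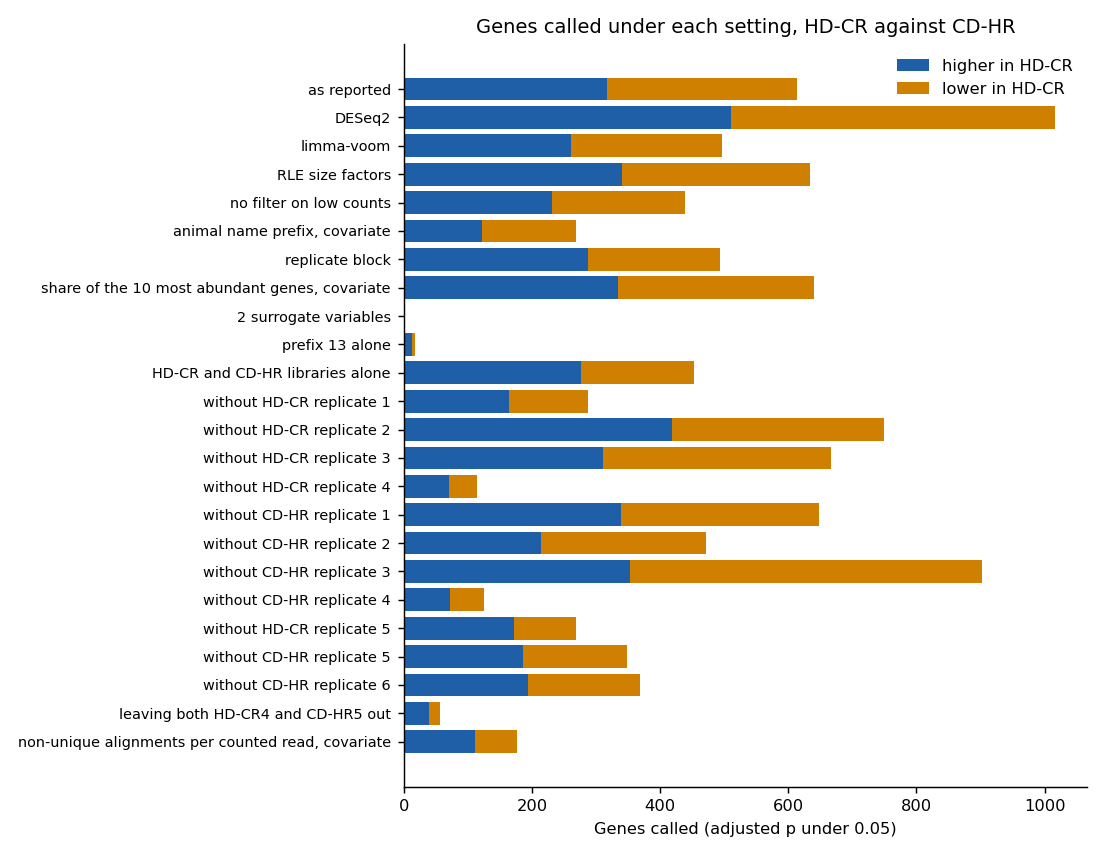
Number of genes called between HD-CR and CD-HR (x axis, adjusted p under 0.05) under each setting (y axis), stacked by direction. The bars run from 2 genes with 2 surrogate variables to 1016 with DESeq2, against 614 as reported.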

How the data were processed

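The authors deposited whole-number counts of reads for each gene, made with STAR 2.4.2a, Picard and HTSeq 0.6.1p1 on Rnor_5.0, per the submitters' processing notes. Annotation release, strand setting and duplicate handling are not stated in the labels, so overlapping, antisense or near-identical genes are uncertain. The 23 files hold 26405 Ensembl identifiers each. Summary lines (no feature, ambiguous, non-unique) entered neither library sizes nor the reported gene tests (reads in no feature, 12.9 to 21.5% in HD-CR and CD-HR). They entered the tests of library measures. The non-unique line also entered the correlation with the pair of abundant genes and 1 alternative fit as a covariate.

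Groups and numbers came from the titles. Over the 25 pairs within HD-CR and within CD-HR, chi-square per degree of freedom was at least 8.38, so no such pair agreed within sampling noise. The p-values measure the spread between rats.

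All 23 libraries entered 1 edgeR 4.0.16 fit (R 4.3.3; filterByExpr, TMM, robust glmQLFit, glmQLFTest), with Benjamini-Hochberg adjustment over 11568 genes. A standard error is the fold change divided by the square root of F. Log2 levels used a prior count of 2. Alternatives used DESeq2 1.42.0, limma 3.58.1 and sva 3.50.0, and the code was tested on simulated data. Library measures were compared by two-sided exact permutation tests.

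The comparison and the lists were chosen with earlier results of these data known. Named per direction were the called genes with the smallest p and the largest change, with a mean level in the 11 hearts of 1 CPM or more. The reference table held 0 of the identifiers, so gene lists, marker genes, mitochondrial share and sequences were not analysed here.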

Additional observations from a re-analysis of the deposited data

Results flagged for a closer look

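A single heart stood apart within CD-HR in 2 related values. ENSRNOG00000010478 was at 0.331 CPM in CD-HR5 and at 0 in the other 5 CD-HR hearts. The median level of the 27 called genes that share its profile was 0.497 CPM in CD-HR5 and 0 in the other 5. Both values are past Dixon's 95% limit for 6 samples, but with the other 5 hearts at exactly 0 any value above 0 would be, so this says no more than that CD-HR5 alone had counts. For ENSRNOG00000010478 these were 2 counts. Both values describe the same genes in the same heart. The usual rate of about 1 in 20 groups marked by chance does not apply where the other values are exactly 0.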

How the results depend on the processing

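Genes called between HD-CR and CD-HR numbered 614. They were 1016 by DESeq2, 269 with the name prefix as a covariate, 2 with 2 surrogate variables and 17 among animals of prefix 13. With HD-CR4 and CD-HR5 both left out there were 57, and adjusted for non-unique alignments per counted read 177, both chosen after the data were seen. Leaving out each HD-CR or CD-HR heart in turn gave 115 (without HD-CR4) to 903 (without CD-HR3). Same-numbered libraries share only a number (correlations of deviations from -0.29 to -0.05), and with that number as a replicate block 493 genes were called. For CD-CR against HD-HR the 422 became 651 by DESeq2, 0 with the prefix and 88 with 2 surrogate variables. Leaving out each CD-CR or HD-HR heart in turn gave 227 (without CD-CR6) to 514 (without CD-CR5), with 258 without CD-CR1 and 250 without HD-HR4. For the difference of both comparisons the 0 became 226 by DESeq2 and 1 with no filter on low counts. It became 16 adjusted for the share of counts in the 10 most abundant genes. Without single HD-CR or CD-HR hearts it was 0 to 46 (46 without HD-CR2, 35 without CD-HR6). For this difference the CD-CR and HD-HR hearts were not left out in turn. The cause of these shifts was not tested. No named gene changed direction. Depth limits the low genes: the fold change of ENSRNOG00000010478 rests on 2 counts in CD-HR.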
